A study of Mus musculus with 6 samples.

Results

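The genes described here are 55 protein-coding genes of ribosome production, chosen by name for their role, with earlier results of these data known, out of 19936 genes with a single-gene probe set on the array. They fall into 6 steps, namely 5 subunits of RNA polymerase I, 8 of its initiation factors and regulators, 8 proteins of small nucleolar ribonucleoproteins (snoRNPs), 4 nucleolar GTPase, nucleolin and nucleophosmin genes, 19 factors of small-subunit processing and 11 of large-subunit processing. All 55 were measured. Expression was compared between 3 RNA samples of mouse embryonic fibroblasts that overexpress Fbxl10 and 3 RNA samples of the parental cells. The HA-Fbxl10 cells carry a plasmid with an HA-tagged Fbxl10 cDNA and were selected as clones after co-transfection of a Hygromycin resistance plasmid. The control cells are the untransfected parental line. Both groups stably express the transactivator of the Tet-off system, which tetracycline controls. How many clones the 3 HA-Fbxl10 samples represent, and whether samples came from separate cultures, is not stated, so p-values below rest only on how these samples varied, and that variation may be technical. There is no vector-only group, and transfection, drug selection, clone choice and Fbxl10 itself cannot be told apart as sources of a difference.

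Ribosomes are assembled in the nucleolus. RNA polymerase I transcribes the repeated rRNA genes into a long precursor after the factor UBF, encoded by Ubtf, and the selectivity factor SL1, which contains the Taf1 proteins, have bound the promoter and Rrn3 has joined the polymerase to it. Complexes guided by small nucleolar RNAs then methylate and pseudouridylate the precursor, while the small-subunit processome and a separate set of large-subunit factors fold and cut it. The transcription factor Myc is known to raise the output of this pathway in growing cells. Fbxl10, now named Kdm2b, is a histone demethylase with a zinc finger that binds unmethylated CG dinucleotides, and in human cells it has been described as a nucleolar protein that represses rRNA genes. The comparison asks whether the protein genes of this machinery differed in mRNA level. Levels of rRNA were not analysed here.

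Since the zinc finger of Kdm2b reads CG dinucleotides, the upstream regions of 4 members are shown before their values. They belong to the 3 members with an adjusted p under 0.01, Gnl3, Utp15 and Imp3, and to Nhp2, the 1 member that fell. Each runs 5′ to 3′ over the 250 bases before the annotated start in RefSeq (GRCm38.p6), with every CG in capitals.
Gnl3, chr14:31019132-31019381, minus strand: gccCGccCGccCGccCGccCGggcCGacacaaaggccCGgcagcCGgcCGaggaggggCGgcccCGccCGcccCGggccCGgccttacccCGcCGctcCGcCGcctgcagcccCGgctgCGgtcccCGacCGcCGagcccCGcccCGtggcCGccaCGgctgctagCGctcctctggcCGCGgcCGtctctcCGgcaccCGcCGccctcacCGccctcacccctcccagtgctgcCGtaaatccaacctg
Utp15, chr13:98262993-98263242, minus strand: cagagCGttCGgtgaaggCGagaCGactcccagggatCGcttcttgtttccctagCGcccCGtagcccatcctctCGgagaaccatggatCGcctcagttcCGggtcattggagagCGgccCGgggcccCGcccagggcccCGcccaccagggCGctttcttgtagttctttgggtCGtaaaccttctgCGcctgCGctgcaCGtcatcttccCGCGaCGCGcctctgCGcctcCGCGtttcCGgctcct
Imp3, chr9:56937250-56937499, plus strand: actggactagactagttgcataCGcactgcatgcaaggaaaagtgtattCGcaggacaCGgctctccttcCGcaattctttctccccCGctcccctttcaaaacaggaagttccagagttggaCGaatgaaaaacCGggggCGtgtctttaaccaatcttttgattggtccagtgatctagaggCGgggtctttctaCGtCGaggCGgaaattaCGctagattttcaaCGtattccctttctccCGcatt
Nhp2, chr11:51619523-51619772, plus strand: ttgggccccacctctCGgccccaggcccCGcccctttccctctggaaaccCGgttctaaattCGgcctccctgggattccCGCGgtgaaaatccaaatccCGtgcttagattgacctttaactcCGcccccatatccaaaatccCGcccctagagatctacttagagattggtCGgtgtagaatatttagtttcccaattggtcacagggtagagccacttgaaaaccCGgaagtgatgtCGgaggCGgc
These windows hold 36, 27, 15 and 13 CG dinucleotides. Over the 46 members with a promoter window the median was 15, against 17 for 8060 genes above the median expression level and 6 for all 27025 genes with a window, where a gene with several windows counted by their mean. The member promoters were thus near those of other expressed genes in CG number. The 9 members that rose had 5 to 36, with a median of 13. The E-box CACGTG, the core sequence bound by Myc with its partner Max, reads the same on both strands and was present in 4 of the 46 members (8.70%), Rrn3, Utp18, Imp4 and Nop2, and in 10.5% of genes above the median level. None of these 4 passed the test below, and 0 of the 9 that rose hold the letters in this window. The ETS-type core CCGGAAG, searched on both strands and unable to overlap the E-box, was present in 13 members (28.3%), in 16.9% of genes above the median level and in 7.83% of all genes. Among called members it was in Heatr1, which rose, and Nhp2, which fell.

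Values are log2 levels per gene, so a difference of 1 is a 2-fold change. Levels of different genes cannot be ranked exactly against each other, so sorting genes by level, as done below, is only rough. Kdm2b itself had 9.77, 9.75 and 9.58 in HA-Fbxl10 cells, against 7.38, 7.45 and 7.28 in control cells. Its signal was thus higher on every array labelled HA-Fbxl10, by 2.33 ± 0.08 (SE, adjusted p in limma = 3.31e-07). The gene has 1 probe set, and whether it read the plasmid cDNA, the cells' own gene or both was not tested. Over all genes, 4208 of 19936 passed an adjusted p of 0.05 in limma (21.1%), 2097 higher and 2111 lower. Subtracting array medians moved that split to 2650 higher and 1560 lower. Of 10 fibroblast markers 9 lay above the median level of all genes (5.36), the exception being Thy1, at 4.53 in HA-Fbxl10 and 4.59 in control cells. The summed log2 level of the fibroblast list was 99.5 to 100.7 in HA-Fbxl10 and 101.9 to 102.4 in control arrays. Col3a1, S100a4, Col6a1 and Pdgfra of that list fell. Of 8 macrophage and leukocyte markers 2 lay above the median level, as did 0 of 6 endothelial and 3 of 6 epithelial markers. The sums of these lists were 32.0 to 32.1, 22.9 to 23.1 and 34.1 to 34.9 in HA-Fbxl10 arrays, and 32.4 to 32.6, 22.6 to 23.1 and 34.1 to 34.3 in control arrays. Of these, the macrophage marker Cd14 fell by 0.45 on the log2 scale, the endothelial marker Kdr rose by 0.51 and the keratin gene Krt19 rose, with 9.79 in HA-Fbxl10 and 9.07 in control cells. The part of these markers in the results below was not tested.

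Most of the 55 genes did not pass the test, and those that did changed by small amounts. At an adjusted p of 0.05, 9 were higher, 1 was lower and 45 were not called, which is 18.2% called against the background of 21.1% for all genes (10.5% higher and 10.6% lower). All 55 members lay above the median level, and among 9968 such genes 37.0% were called (19.2% higher and 17.8% lower). The members were mostly brighter than that set, with 53 of 55 above the 75th percentile of level, and the difference in share was not tested. Their median difference was 0.05, against -0.00427 for all genes. The largest difference was that of Gnl3, at 1.40-fold. None of the 55 reached 2-fold, which 191 of all genes did among those called (0.958%). At an unadjusted p under 0.05, 15 members were higher and 7 lower, against a background of 31.3% of all genes in either direction. At an adjusted p of 0.01, 3 members were called, while 12.7% of all genes were. For 32 of the 55 genes (58.2%) the HA-Fbxl10 values lay wholly on one side of the control values, 18 higher and 14 lower, against 36.0% of all genes and 57.9% of genes above the median level.

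**Figure D1:**
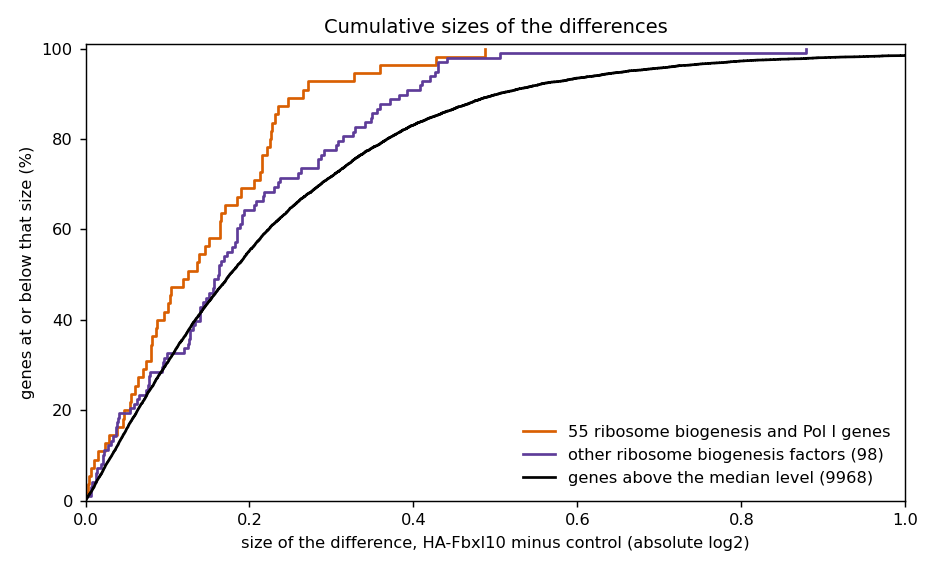
Cumulative share of genes (percent, y axis) against the absolute log2 difference between HA-Fbxl10 and control cells (x axis) for the 55 genes, 98 other ribosome biogenesis factors and 9968 genes above the median level. The curve of the 55 genes ends at 0.49 and has its median at 0.125, while that of the genes above the median level has its median at 0.176 and runs past the right edge.

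The size of these differences was bounded only against the spread between the 6 arrays, which may be technical. The intervals may thus leave out variation between cultures or clones. Standard errors ran from 0.059 to 0.135, and for 54 of the 55 genes the 95% interval of the difference lay within 1.5-fold in either direction (0.585 on the log2 scale). Gnl3 was the exception, with an interval of 0.35 to 0.63. Such bounds held for 89.8% of all genes and for 83.5% of those above the median level. They do not show that a gene was equal in both groups, and 6 members missed the threshold narrowly, with adjusted p of 0.0537 to 0.0604. Of these, Rrn3, Ltv1, Brix1 and Wdr43 had positive and Mybbp1a and Polr1a negative differences.

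**Figure D2:**
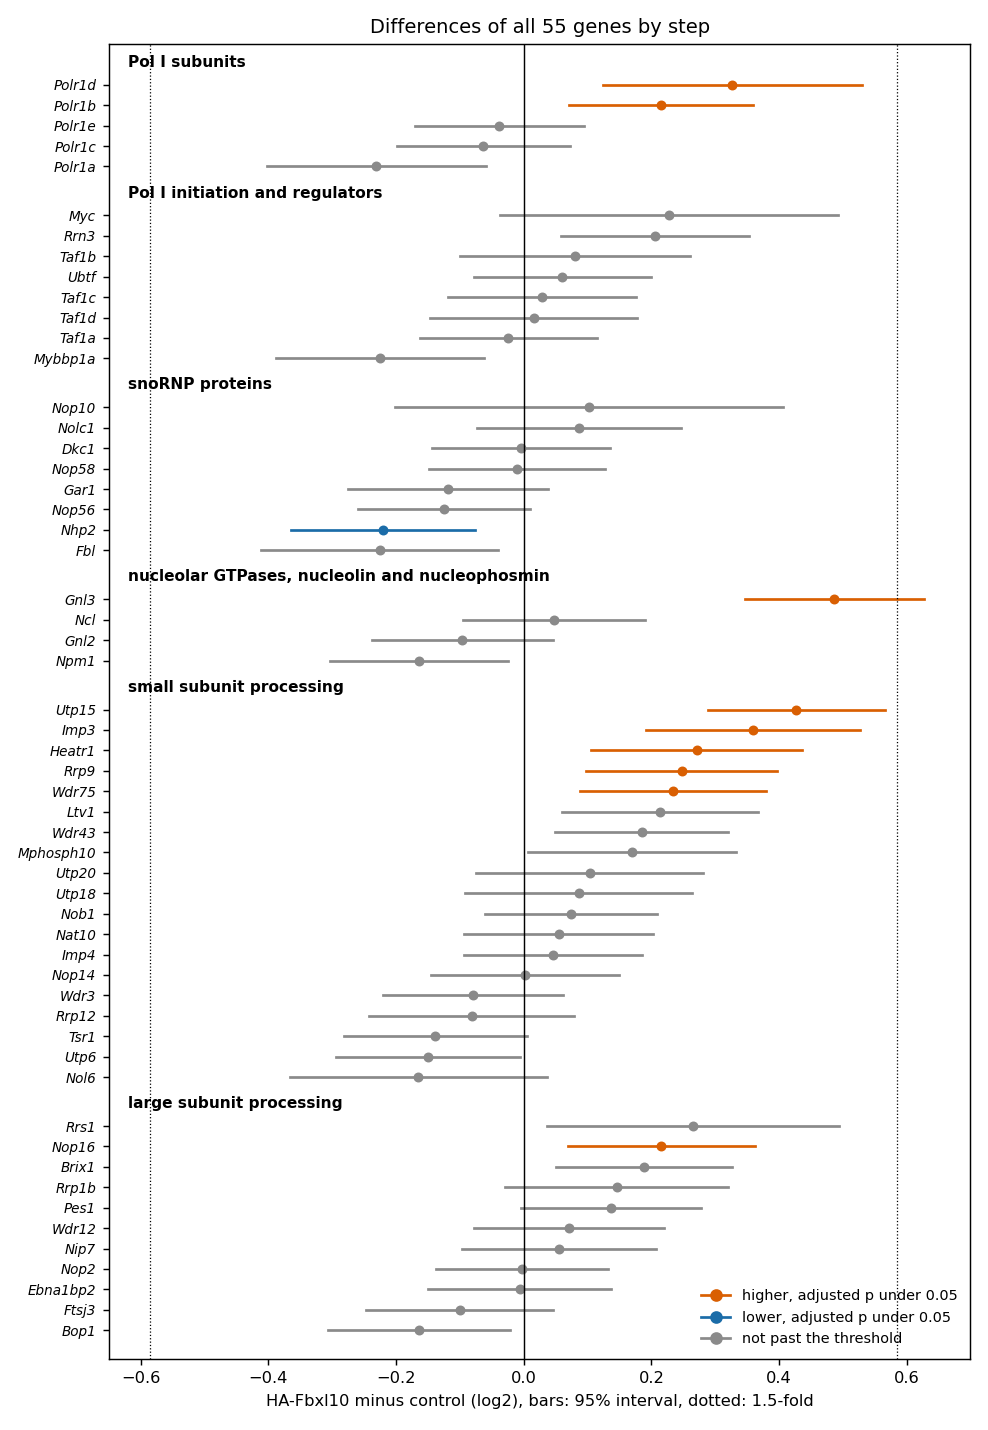
Difference between HA-Fbxl10 and control cells (log2, x axis) for each of the 55 genes, grouped by step, with the 95% interval from limma as a bar. Orange genes passed an adjusted p of 0.05 as higher, the blue gene, Nhp2, as lower, grey ones did not pass, and dotted lines mark 1.5-fold.

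Among RNA polymerase I subunit genes, 2 of 5 rose and 0 fell in limma, where 21.1% of all genes and 37.0% of those above the median level were called. A further 1 was lower at an unadjusted p under 0.05 in limma, which 31.3% of all genes passed in either direction. The arrays of both groups stood apart for all 5, as they did for 36.0% of all genes and 57.9% of those above the median level. Polr1b, which encodes the second-largest subunit and part of the catalytic centre, had 8.49, 8.56 and 8.58 in HA-Fbxl10 cells, against 8.32, 8.28 and 8.39 in control cells. Every HA-Fbxl10 array lay above every control array, and the difference was 0.22 ± 0.06 (SE, adjusted p = 0.0408). Polr1d, a small subunit that RNA polymerase I shares with RNA polymerase III, had 9.52, 9.50 and 9.49 in HA-Fbxl10 cells and 9.34, 8.98 and 9.22 in control cells. The HA-Fbxl10 arrays were nearly equal and the control arrays spread, with control replicate 2 lowest, and the gene was higher by 0.33 ± 0.09 (SE, adjusted p = 0.0294). A dimmer probe set of Polr1d gave 0.14, with groups that overlapped, and with both averaged the difference was 0.232 and the call ended (adjusted p = 0.0738).

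Polr1a, the gene of the largest, catalytic subunit, ran the other way without passing. It had 8.79, 8.78 and 8.70 in HA-Fbxl10 cells, against 8.99, 8.87 and 9.11 in control cells, a difference of -0.23 ± 0.08 (SE, adjusted p = 0.0604). The groups did not overlap, and without control replicate 2, the lowest control array, the gene passed as lower. Polr1c, the other subunit shared with RNA polymerase III, and Polr1e had differences of -0.06 and -0.04. In both, the lowest control array was above the highest HA-Fbxl10 array by a narrow margin, and neither passed (standard errors of 0.06, adjusted p of 0.55 and 0.739).

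No initiation factor or regulator passed the test. Of 8 genes 0 were called by limma, where 21.1% of all genes and 37.0% of those above the median level were called. At an unadjusted p under 0.05 in limma, 1 was higher and 1 lower, against 31.3% of all genes in either direction. The median difference was 0.04. Ubtf had 9.10, 9.16 and 9.09 in HA-Fbxl10 cells and 9.07, 9.02 and 9.08 in control cells. The HA-Fbxl10 arrays were the higher ones by a hair, and the interval of the difference, -0.08 to 0.20, includes 0. Rrn3, whose product links the polymerase to the promoter and is a target of growth signals, had 9.78, 9.91 and 9.77 in HA-Fbxl10 cells, against 9.61, 9.61 and 9.62 in control cells. Its groups stood apart, with nearly equal control arrays, and its difference of 0.21 ± 0.07 (SE) had an adjusted p of 0.0537. The SL1 subunit genes Taf1a, Taf1b and Taf1c had differences of -0.02, 0.08 and 0.03, each with overlapping groups.

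Taf1d, a further SL1 subunit gene, gave different values from different probe sets. The brightest of its 9 probe sets, used here, had 10.28, 10.10 and 10.12 in HA-Fbxl10 cells and 10.20, 10.10 and 10.15 in control cells, a difference of 0.02. The other 8 gave 0.22 to 0.36, and 4 of them hold identical values on every array, so they are not separate measurements. With the 9 probe sets averaged the gene passed as higher. Its direction is not settled by these data.

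Myc had 9.66, 9.68 and 9.63 in HA-Fbxl10 cells, against 9.51, 9.13 and 9.65 in control cells. Control replicate 3 lay among the HA-Fbxl10 arrays and control replicate 2 far below them. The difference of 0.23 ± 0.12 (SE) did not pass (adjusted p = 0.231), and its interval runs from -0.04 to 0.49. Without control replicate 2 it was 0.0786. Mybbp1a, which encodes a Myb-binding nucleolar protein described as a repressor of RNA polymerase I, had 10.70, 10.74 and 10.53 in HA-Fbxl10 cells and 10.86, 10.86 and 10.92 in control cells. The groups stood apart with HA-Fbxl10 lower, at a difference of -0.23 ± 0.07 (SE, adjusted p = 0.0551).

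Among 8 snoRNP protein genes 1 fell, 0 rose and 7 were not called. This is 12.5% called, against 21.1% of all genes and 37.0% of those above the median level. At an unadjusted p under 0.05 in limma, 2 were lower and 0 higher, against 31.3% of all genes in either direction. The 1 that fell was Nhp2, which encodes a core protein of the box H/ACA particles that pseudouridylate rRNA. It had 9.93, 10.02 and 9.99 in HA-Fbxl10 cells, against 10.19, 10.15 and 10.26 in control cells. All HA-Fbxl10 arrays were below all control arrays, and the difference was -0.22 ± 0.06 (SE, adjusted p = 0.0362). The call ended without any single array (adjusted p of 0.0532 to 0.126). The other H/ACA genes were the pseudouridine synthase gene Dkc1, Nop10 and Gar1. Their differences were -0.00437, 0.10 and -0.12. Nop10 had the least certain value of all 55 genes (SE 0.135), since control replicate 2 had 9.23 and the other control arrays 9.78 each, with 9.67 to 9.72 in HA-Fbxl10 arrays. Without control replicate 2 its difference turned to -0.0819.

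Genes of the box C/D particles, which methylate rRNA, were not called. Fbl, the methyltransferase fibrillarin, had 9.33, 9.43 and 9.16 in HA-Fbxl10 cells, against 9.55, 9.59 and 9.45 in control cells. The HA-Fbxl10 arrays were lower and more spread, and the difference was -0.23 ± 0.08 (SE, adjusted p = 0.0881). Its dimmer probe set gave -0.19 with overlapping groups. Nop56 had 11.38, 11.44 and 11.44 in HA-Fbxl10 cells and 11.52, 11.55 and 11.56 in control cells, groups that stood apart by a small difference of -0.12 ± 0.06 (SE, adjusted p = 0.197). Its partner Nop58 had -0.01 and the snoRNP chaperone gene Nolc1 had 0.09.

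Gnl3 showed the largest change of all 55 genes. It encodes nucleostemin, a nucleolar GTPase known for its high level in stem and tumour cells and for its part in large-subunit processing. It had 10.34, 10.36 and 10.41 in HA-Fbxl10 cells, against 9.87, 9.85 and 9.94 in control cells. The groups were far apart relative to their spread, and the gene rose by 0.49 ± 0.06 (SE, adjusted p = 0.000589), or 1.40-fold. The call held in each of the 17 other settings tried, at adjusted p of 1.21e-06 to 0.00618. Its relative Gnl2, a GTPase of large-subunit export, had a difference of -0.10 ± 0.06 (SE) with an adjusted p of 0.359.

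The abundant nucleolar proteins nucleolin and nucleophosmin were not called. Ncl had 11.64, 11.70 and 11.60 in HA-Fbxl10 cells and 11.63, 11.55 and 11.62 in control cells, with overlapping groups and a difference of 0.05 ± 0.06 (SE). Npm1 had 11.19, 11.16 and 11.14 in HA-Fbxl10 cells, against 11.34, 11.27 and 11.37 in control cells, a difference of -0.16 ± 0.06 (SE, adjusted p = 0.0993). The Npm1 groups stood apart with HA-Fbxl10 lower. Npm1 has processed copies elsewhere in the genome, which its probes may also read. Probe set locations were not given, so whether the probe sets of Fbl, Wdr12, Taf1d and Polr1d read such copies could not be checked.

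**Figure D3:**
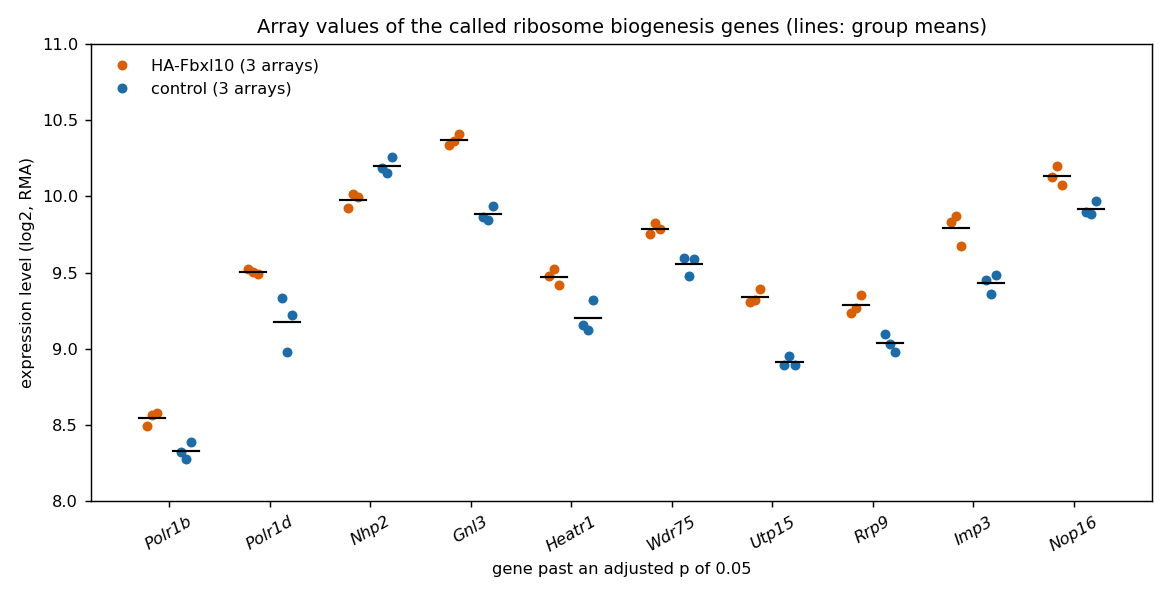
Log2 expression level (y axis) on each array for the 10 called genes, with 3 HA-Fbxl10 arrays in orange left of 3 control arrays in blue and lines at the group means. The groups do not overlap for any of the 10, and only Nhp2 is lower in HA-Fbxl10 cells.

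Of 19 members of small-subunit processing 5 rose, 0 fell and 14 were not called. This is 26.3% called, between the 21.1% of all genes and the 37.0% of genes above the median level. In limma 8 were higher and 1 lower at an unadjusted p under 0.05. In either direction, 31.3% of all genes and 5090 of 9968 genes above the median level passed that p. The median difference was 0.09 and 14 of the 19 differences were positive, as were 9771 of all 19936 genes and 5052 of the 9968. These shares were not compared by a test. Utp15, a subunit of the t-UTP group of the processome that acts on transcription as well as cleavage in human cells, had 9.31, 9.32 and 9.39 in HA-Fbxl10 cells, against 8.89, 8.95 and 8.90 in control cells. The groups were well apart, and the gene rose by 0.43 ± 0.06 (SE, adjusted p = 0.00116), or 1.34-fold. Imp3, which joins the U3 snoRNP to the precursor, had 9.83, 9.87 and 9.67 in HA-Fbxl10 cells and 9.45, 9.36 and 9.48 in control cells. It was higher on every HA-Fbxl10 array, by 0.36 ± 0.07 (SE, adjusted p = 0.00745). These calls, like that of Gnl3, held without any single array.

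The other 3 that rose were less secure. Heatr1, a large scaffold of the same t-UTP group, had 9.48, 9.52 and 9.42 in HA-Fbxl10 cells, against 9.15, 9.13 and 9.32 in control cells. Control replicate 3 came close to the HA-Fbxl10 arrays, and the difference was 0.27 ± 0.07 (SE, adjusted p = 0.0272). Wdr75, also of the t-UTP group, had 9.75, 9.83 and 9.79 in HA-Fbxl10 cells and 9.60, 9.48 and 9.59 in control cells, higher by 0.23 ± 0.06 (SE, adjusted p = 0.0294). Rrp9, a protein of the U3 snoRNP, had 9.24, 9.27 and 9.35 in HA-Fbxl10 cells, against 9.10, 9.03 and 8.98 in control cells, higher by 0.25 ± 0.07 (SE, adjusted p = 0.0256). In both genes all HA-Fbxl10 arrays were above all control arrays. Leaving out 1 array ended the call of Heatr1 in 4 of 6 cases, that of Wdr75 in 5 and that of Rrp9 in 4.

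Other small-subunit members stayed below the threshold. Ltv1, an assembly factor of late pre-40S particles, had 9.11, 9.23 and 9.06 in HA-Fbxl10 cells, against 8.95, 8.89 and 8.92 in control cells. Its groups stood apart at a difference of 0.21 ± 0.07 (SE, adjusted p = 0.0545). Wdr43, another t-UTP protein, had 10.997, 11.046 and 11.027 in HA-Fbxl10 cells and 10.849, 10.804 and 10.863 in control cells, a difference of 0.18 ± 0.06 (SE, adjusted p = 0.0576). Imp4, the partner of Imp3 in the U3 particle, had 0.05, and Mphosph10, the third protein of that trio, had 0.17 (adjusted p of 0.698 and 0.142). The members of this complex thus did not share a called change. Utp6, Nol6, Tsr1, Wdr3 and Rrp12 had negative differences of -0.16 to -0.08, and Utp18, Utp20, Nob1, Nat10 and Nop14 had differences of 0.00206 to 0.10.

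In large-subunit processing 1 of 11 genes rose, 0 fell and 10 were not called. This is 9.09% called, against 21.1% of all genes and 37.0% of those above the median level. At an unadjusted p under 0.05 in limma, 3 were higher and 1 lower, against 31.3% of all genes in either direction. Nop16, a nucleolar protein known as a Myc target, had 10.13, 10.20 and 10.07 in HA-Fbxl10 cells, against 9.90, 9.88 and 9.97 in control cells. The groups stood apart, and the gene was higher by 0.22 ± 0.07 (SE, adjusted p = 0.0433). Leaving out 1 array ended this call in 5 of 6 cases. Rrs1, which in yeast brings the 5S particle into the large subunit, had 9.05, 8.98 and 9.38 in HA-Fbxl10 cells and 8.83, 8.93 and 8.85 in control cells. HA-Fbxl10 replicate 3 lay far above the other arrays, and the difference of 0.27 ± 0.10 (SE) did not pass (adjusted p = 0.102).

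The 3 genes of the PeBoW complex, which is needed for maturation of the large-subunit rRNAs, differed in sign and were not called. Pes1 had 10.98, 11.05 and 11.03 in HA-Fbxl10 cells, against 10.92, 10.82 and 10.90 in control cells, a difference of 0.14 ± 0.06 (SE, adjusted p = 0.176). Bop1 had 9.49, 9.60 and 9.58 in HA-Fbxl10 cells and 9.75, 9.69 and 9.71 in control cells, a difference of -0.16 ± 0.06 (SE, adjusted p = 0.107). Each gene had groups that stood apart, in opposite directions. Wdr12 had 0.07 from the brighter and 0.10 from the dimmer of its 2 probe sets. Brix1, a factor of large-subunit assembly, had 0.19 ± 0.06 (SE, adjusted p = 0.0568). The rRNA methyltransferase gene Nop2 had -0.00287, and Nip7, Rrp1b, Ebna1bp2 and Ftsj3 had 0.06, 0.15, -0.00633 and -0.10.

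In a wider list of 98 further ribosome biogenesis factors, 16 rose, 13 fell and 69 were not called, with a median difference of 0.01. All 98 lay above the median level, and the 29.6% called compares with 37.0% of all genes at such levels and 21.1% of all genes. Naf1, an assembly factor of the H/ACA particles, had 7.83, 8.03 and 8.06 in HA-Fbxl10 cells, against 7.23, 6.87 and 7.19 in control cells, and rose by 0.88 ± 0.11 (SE, adjusted p = 0.000455). That is a larger difference than for any of the 55 genes, in the same particle family as Nhp2, which fell. Shq1, the other H/ACA assembly factor on the list, fell by 0.28 on the log2 scale. Nufip1 (0.43), an assembly factor of box C/D particles, Nol10 (0.43) and Utp23 (0.42), both processome factors, and Znrd1 (0.41), a small RNA polymerase I subunit now named Polr1h, rose. Wdr18 (-0.51), of the complex that releases large subunits from the nucleolus, and Utp14a (-0.44), a processome factor, fell.

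Partners and textbook targets of Myc also went both ways. Of 30 genes 5 rose, 3 fell and 22 were not called, with a median difference of -0.00542. This is 26.7% called, against 21.1% of all genes. Of the 30 genes 27 lay above the median level, where 37.0% of genes were called. Nampt (0.46), Ccnd2 (0.39), Tfrc (0.36), Ppat (0.35) and Odc1 (0.32), the ornithine decarboxylase gene, rose. Shmt2 (-0.40), a serine hydroxymethyltransferase gene, and Mxd1 (-0.28) and Mxd4 (-0.26), which encode antagonists of Myc for the partner Max, fell.

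Where a gene lay on the genome went with its difference. The members lie on 19 chromosomes, and neighbouring expressed genes were often shifted the same way, so each member was set beside the median of the 30 nearest genes above the median level. These neighbour medians ran from -0.219 to 0.32. The sign of a member's difference was that of its neighbours for 44 of 55. The correlation across the 55 genes was 0.617 (Pearson) or 0.578 (Spearman), as a description of genes that share arrays and, in part, neighbours. The same count over all genes was not made, so the match cannot be called particular to the members. All 9 members that rose lay among the 29 on chromosomes with a positive median, and the 1 that fell lay among the other 26. On chromosome 13, with a median of 0.20 over 364 expressed genes, 43.1% of those genes were called higher, and Utp15, Heatr1 and Nop16 all rose. On chromosome 9, with a median of 0.22 over 573 genes, 45.9% were called higher, and Imp3 and Rrp9 rose. On chromosome 11, with a median of -0.13 over 841 genes, 30.2% were called lower. Nhp2 fell there, and 5 of the other 8 members, Npm1, Mybbp1a, Utp6, Tsr1 and Ftsj3, had negative differences.

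**Figure D4:**
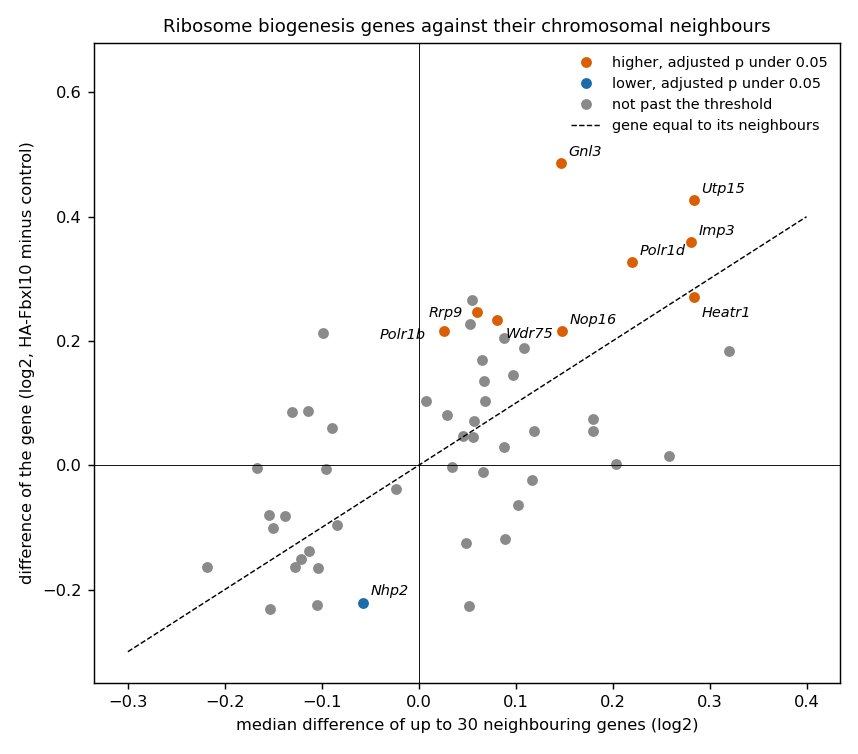
Difference of each of the 55 genes (log2, HA-Fbxl10 minus control, y axis) against the median difference of its 30 neighbouring expressed genes (x axis), with called genes named and a dashed line where both are equal. Gnl3 lies well above the line (0.49 against 0.15), and Heatr1 lies close to it (0.27 against 0.28).

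When a running median over neighbouring expressed genes was subtracted on each array, 3 members were called, all higher, while 15.7% of all genes were. Only genes above the median level were adjusted in this way, so the 15.7% mixes adjusted and unadjusted genes. The members called were Gnl3 (0.318, adjusted p = 0.00618), Wdr75 (0.234, adjusted p = 0.0292) and Ltv1, so 2 of the 10 reported calls held. Utp15 had 0.18 and Imp3 0.0978 and neither passed (adjusted p of 0.141 and 0.438). Heatr1 became -0.0304. The part of the neighbours in the members' differences was not tested. Subtracting each chromosome's median instead kept the call of Gnl3 (0.362, adjusted p = 0.00281) and ended the calls of the other 9. In this setting, which again adjusted only genes above the median level, 3618 of 19936 genes were called. This setting brought in 5 members that are not called as reported, all higher, namely Ubtf, Rrn3, Ltv1, Pes1 and Brix1. Among these Pes1 had 0.275 (adjusted p = 0.011), Rrn3 0.235 (adjusted p = 0.0251) and Ubtf 0.199 (adjusted p = 0.0405).

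The balance between higher and lower members also depended on how arrays were scaled. With quantile normalisation over genes 6 members were higher and 7 lower, with a median difference of 0.0173 against 0.00563 for all genes. Of all 19936 genes, 2255 were then called higher and 2253 lower. With array medians subtracted 14 members were higher and 0 lower (0 lower also at an unadjusted p under 0.05 in limma). Medians were then 0.11 for the members and 0.0505 for all genes, of which 2650 were called higher and 1560 lower. Gnl3, Utp15, Imp3, Heatr1, Rrp9 and Polr1d were called higher under both scalings. The direction of Nhp2 was the same under both, at -0.271 and -0.166, though it passed only under the first. Leaving out any 1 array other than control replicate 3 left 3 to 5 members higher, with 3 without HA-Fbxl10 replicate 2 and 3 without control replicate 2, while 8 were higher without control replicate 3.

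**Figure D5:**
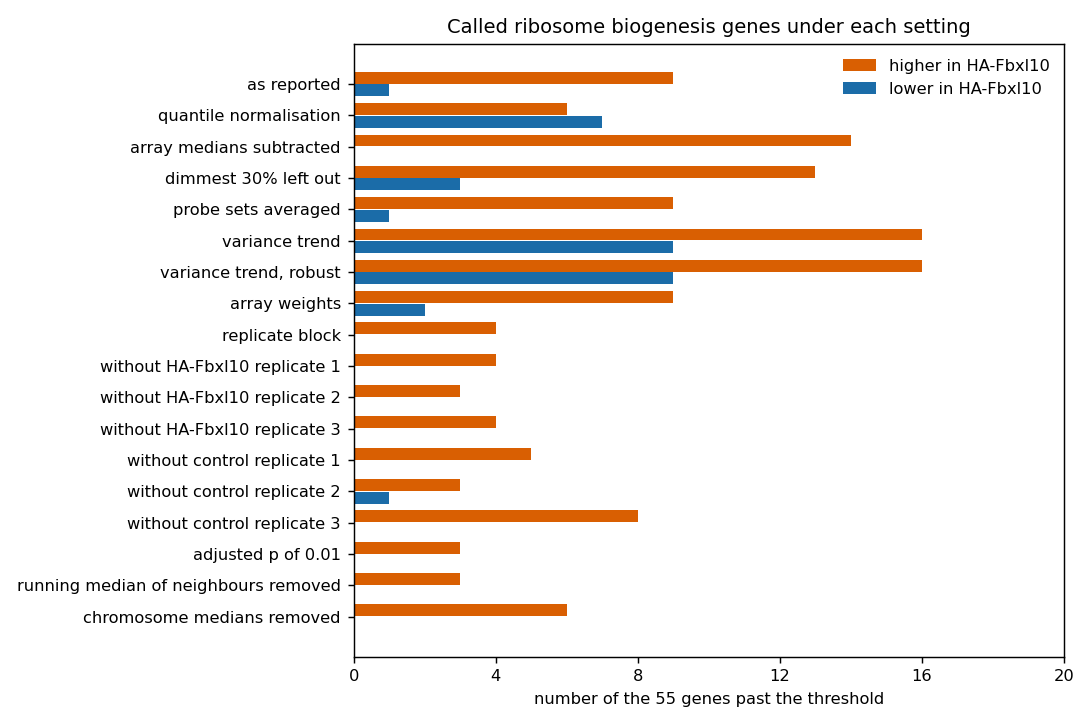
Number of the 55 genes past the threshold (x axis) as reported and under each other setting (rows), higher in HA-Fbxl10 cells in orange and lower in blue. Counts of higher genes run from 3 to 16 and counts of lower genes from 0 to 9.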

How the data were processed

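RNA of 3 HA-Fbxl10 and 3 control samples, 300 ng each, was hybridised to Affymetrix arrays. The deposited values are log2 levels per probe set that the authors made with RMA, per the submitters' processing notes, with version, settings and genome build not given in the sources used here. RMA is meant to equalise the arrays' distributions, which hides any shift common to most genes, and it compresses low values. The deposited arrays were not exactly equal. Their medians over all probe sets were 4.756, 4.685 and 4.73 in HA-Fbxl10 and 4.753, 4.786 and 4.748 in control arrays. No values for single array probes, detection calls or array batches were used.

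Of 35556 probe sets, 21789 name 1 gene, 1621 several and 12146 none in the platform annotation. Single-gene probe sets were named through RefSeq (GRCm38.p6; 21698 by Entrez identifier, 3 by accession, 88 kept the old symbol), and the one with the highest mean per gene was kept, giving 19936 genes. Of the 55 members 51 have 1 probe set. Groups were compared over all genes with limma 3.58.1 in R 4.3.3 (two-sided moderated tests from lmFit and eBayes, with Benjamini-Hochberg adjustment over all genes and a threshold of 0.05), without a filter. Differences are HA-Fbxl10 minus control. The same test was also run on simulated data, with results not reported here. Tables and figures used pandas 2.3.3, numpy 2.4.6 and matplotlib 3.10.9.

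Members and lists were chosen with earlier results of these data known. Array values are given for called members, for the uncalled member with the largest change and the one with the highest mean in each step, for Myc, Polr1a, Ubtf and Rrn3, and for a few members named after their values were seen (Nop10, Bop1 and Taf1d). Of other lists, called genes are named, up to 8 per list, with Shq1, Polr3g and the marker genes picked once their values were known. The number of arrays limits precision. Settings tried were other normalisation, dim genes left out, averaged probe sets, variance trends, array weights, a replicate block, each array left out, an adjusted p of 0.01, and removal of chromosome or neighbour medians (31 genes, each counted in its own window, on deviations from the gene's mean). Chromosome and neighbour medians were subtracted only for genes above the median level with a known chromosome.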

Additional observations from a re-analysis of the deposited data

How the results depend on the processing

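Kdm2b kept its direction and its call in each of 17 other settings. Over the 10 called members and 17 settings, 102 of 170 values kept direction and call, 67 kept direction and lost the call, and 1, Heatr1 at -0.0304 with neighbour medians removed, changed sign. The counts of members were unstable. With quantile normalisation they were 6 higher and 7 lower (4508 genes in all). With array medians subtracted they were 14 and 0 (4210 genes), and without the dimmest 30% of genes 13 and 3 (4642 of 13955 genes). A variance trend gave 16 and 9, with or without robust estimation (5032 genes each). Array weights gave 9 and 2 (4463 genes), and an adjusted p of 0.01 gave 3 and 0 (2536 genes). With neighbour medians removed they were 3 and 0 (3135 genes), and with chromosome medians removed 6 and 0 (3618 genes). Except where the dimmest genes were left out, 19936 genes were tested. Leaving out 1 array gave 3 to 8 higher, 0 to 1 lower and 3208 to 3853 genes in all. Members higher were 3 without HA-Fbxl10 replicate 2 or control replicate 2, 4 without HA-Fbxl10 replicate 1 or 3, 5 without control replicate 1 and 8 without control replicate 3. Where a count of lower members was 0, limma gave 0 (array medians subtracted) to 7 lower at an unadjusted p under 0.05. The cause was not tested, other than that fewer genes or arrays were fitted where the setting left some out. The median difference of the members stayed between 0.00302 and 0.11 in all settings.

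With the replicate number as a block 3397 genes and 4 members, all higher, were called, with 4 members lower at an unadjusted p under 0.05. Whether equal replicate numbers mark paired samples is not stated. Arrays of the same number had deviations correlated at 0.0851, -0.283 and -0.0934, and 1 of 6 arrays correlated best with its own number. Deviations within a group of so few arrays depend on each other, so these correlations cannot decide whether the samples were paired.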

Other observations

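Genes next to this machinery changed in both directions. The shares called below compare with 37.0% of genes above the median level, where all members of these 3 lists lie, and no difference in share was tested. Of 13 exosome genes, whose products trim and degrade precursor rRNA, 3 rose and 4 fell (53.8% called). Exosc5, a ring subunit, had 6.98, 7.22 and 6.99 in HA-Fbxl10 cells, against 7.95, 7.98 and 7.92 in control cells. Its groups were far apart, and it fell by 0.88 on the log2 scale (SE 0.08, limma adjusted p = 8.13e-05). Mtrex, the helicase gene that feeds the nuclear exosome, had 10.002, 9.976 and 10.028 in HA-Fbxl10 cells and 9.448, 9.518 and 9.535 in control cells, and rose by 0.50 (SE 0.06, adjusted p = 0.000474). Dis3 (-0.34), Exosc9 (-0.30) and Exosc8 (-0.27) also fell, the last 2 of them on chromosome 3 beside neighbours with a median of -0.30 each, and Mphosph6 (0.40) and Exosc7 (0.32) rose.

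Of 25 genes of RNA polymerase III, its factors and shared subunits, 5 rose and 5 fell (40.0% called). Polr3gl, which encodes the common form of a subunit with 2 forms, fell by 0.62 on the log2 scale. Polr3g, the form known from stem and tumour cells, rose by 0.31. Their chromosomal neighbours had medians of the same signs, -0.29 for Polr3gl and 0.19 for Polr3g, and the part of the neighbours was not tested. Maf1, a repressor of RNA polymerase III, fell by 0.51 and Polr2e, a subunit shared by all 3 polymerases, fell by 0.56. Neighbour medians of these genes were -0.21 and -0.15. Of 17 regulators of rRNA gene chromatin, 4 rose and 3 fell (41.2% called). Phf8 rose by 0.45, Smarca5 by 0.35, Ercc6 by 0.31 and Baz1b by 0.29. Their neighbour medians were 0.27, 0.30, 0.09 and 0.09. Kdm4a fell by 0.50, Baz2a by 0.33 and Sirt7 by 0.31. Neighbour medians of these genes were -0.08, -0.16 and -0.25.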
